A study of Rattus norvegicus with 26 samples.

Results

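The p53 targets and DNA repair genes described here are 46 genes in 2 sets of 23, taken by symbol: direct transcriptional targets of the tumor suppressor p53, and the kinases, break sensors and enzymes that detect and mend damaged DNA. They were measured in the DG (dentate gyrus, the granule cell field of the hippocampus) of male F344 rats aged 6 months. Of the 46 genes, 44 were listed in the values, 42 under the same symbol and 2 (Mre11a as Mre11, H2afx as H2ax) under the current one; Eda2r and Chek1 were not. All 44 passed the filter on low values, a mean of 5 normalized counts or more, and were tested, 22 in each set, among 15595 tested genes of 17910 in all.

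The Veh group (10 rats) received vehicle. The Dox group (8 rats) received doxorubicin, an anthracycline used in chemotherapy, in 4 weekly doses of 2 mg/kg. The Dox + ABT group (8 rats) received the same doxorubicin and also the senolytic ABT-263, which blocks survival proteins of the Bcl-2 family, at 12 mg/kg for 5 consecutive days every other week. RNA came from the DG of a single hemisphere, with 1 library per rat, and the Veh rats also belonged to an ongoing study of brain aging, so vehicle treatment and membership in that study cannot be told apart. The DG was cut out as bulk tissue, in which fewer cells of a type and less RNA per cell cannot be told apart.

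In cells it reaches, doxorubicin traps topoisomerase II on DNA and leaves double-strand breaks. The study describes limited entry of the drug into the brain, and its behavior testing began 2 weeks after the last dose. The amount of doxorubicin in the DG was not measured here. Breaks are bound by the complex of Mre11, Rad50 and Nbn, which activates the kinase Atm; Atm and its relatives phosphorylate the histone H2ax, the mediators Mdc1 and Tp53bp1, and p53 itself. Stabilized p53 then raises transcription of its targets, which restrain p53 in turn (Mdm2, Ppm1d), stop division (Cdkn1a, Btg2), buffer oxidants (the sestrins), promote cell death (Pmaip1) or help to recognize lesions (Xpc, Ddb2). Sensors and repair enzymes are mostly switched on through their proteins, so the transcripts of the 2 sets can be compared as a response and as the machinery upstream of it.

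The libraries held about 10200000 to 24300000 reads each, estimated from the low values, and the median was 16700000 for Veh, 15600000 for Dox and 15100000 for Dox + ABT. On this scale 1 read was worth 0.691 to 1.49 normalized counts, so Fas, Chek2 and Brca1, with group means of 15.8 or lower, rested on few reads. Apart from the groups, the libraries fell into 2 kinds on principal component 1 of the deviations from group means, which carried 28.4% of that variance. The first kind (4 Veh, 5 Dox and 7 Dox + ABT rats) had 0.628% to 1.24% of its signal in ribosomal protein genes and the second (6 Veh, 3 Dox and 1 Dox + ABT rats) 1.30% to 2.09%. No label names a batch that matches the kinds, and they are unevenly spread over the groups, so the called differences of the members are also given with the kind as a covariate. The 4 granule cell markers (Prox1, Calb1, C1ql2 and Dsp) were expressed in every library, with summed levels of 8177 to 13395 normalized counts. Among markers of other cells, 3 of 5 microglial and 3 of 5 astrocyte markers fell in Dox against Veh at p under 0.01, beside 1.85% of all tested genes that fell. The summed microglial level was 2321 to 4841 in Veh, 1953 to 3418 in Dox and 2188 to 3851 in Dox + ABT, the summed astrocyte level 36226 to 56558, 29841 to 37275 and 34806 to 50607. Oligodendrocyte markers fell for 1 of 5 genes in Dox. In Dox + ABT against Veh 1 of 5 microglial, 1 of 5 astrocyte, 1 of 4 granule cell and 1 of 4 oligodendrocyte precursor markers fell, beside 3.95% of all tested genes that fell. These marker counts are from the fit without the library kind as a covariate. No marker list was at 0 in any library. The part of cell composition in the differences below was not tested.

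Across both sets few members changed. In Dox against Veh, 2 of the 22 p53 targets rose at p under 0.01 (limma, unadjusted, the threshold the study used) and none fell, where 1.02% of all tested genes rose, 1.85% fell and 2.87% were called in either direction. None of the 22 sensors and repair enzymes was called in that comparison by limma, none had p under 0.05, and none passed 0.01 in an exact permutation test. By that test 1 of the 22 targets (Xpc) passed 0.01. The exact test was run on the members only, so it has no share of all genes. In Dox + ABT against Veh none of the 22 targets was called by limma or by the exact test (3 had p under 0.05), and 2 of the 22 sensors and enzymes rose by limma, beside 3.89% of all genes that rose, 3.95% that fell and 7.84% called in either direction. None of the 22 sensors and enzymes passed 0.01 by the exact test there. In Dox against Dox + ABT, 2 targets were higher in Dox by limma, beside 2.32% of all genes higher, 1.71% lower and 4.03% called either way. By the exact test 3 targets (Sesn2, Btg2 and Pmaip1) passed 0.01. None of the sensors and enzymes was called by limma (1 had p under 0.05, and 1, Apex1, passed 0.01 by the exact test). With both doxorubicin groups averaged against Veh, 1 target rose, beside 2.56% of all genes that rose, 2.49% that fell and 5.05% called either way, and none of the sensors and enzymes was called (5 had p under 0.05). The comparisons share groups, so their counts are not independent of one another. After adjustment over all tested genes by the Benjamini-Hochberg method no member was below 0.05; the smallest adjusted p was 0.3 in Dox against Veh, 0.109 in Dox + ABT against Veh and 0.171 in Dox against Dox + ABT (limma).

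The median change was small in both sets. For the p53 targets it was 0.06 on the log2 scale in Dox against Veh, -0.05 in Dox + ABT against Veh and 0.07 in Dox against Dox + ABT; for the sensors and enzymes it was 0.05, 0.10 and -0.06. Over all tested genes the same medians were 0.01, 0.00 and 0.00. For most members the data bound the change rather than leave it open. The 95% interval of Dox against Veh lay within a 2-fold change for 42 of the 44 members (all but Pmaip1 and Fas), or 95.5%, beside 89.2% of all tested genes. It lay within a 1.5-fold change for 33, or 75%, where 68.1% of all tested genes had an interval that narrow. Which set moved more was not tested.

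**Figure D1:**
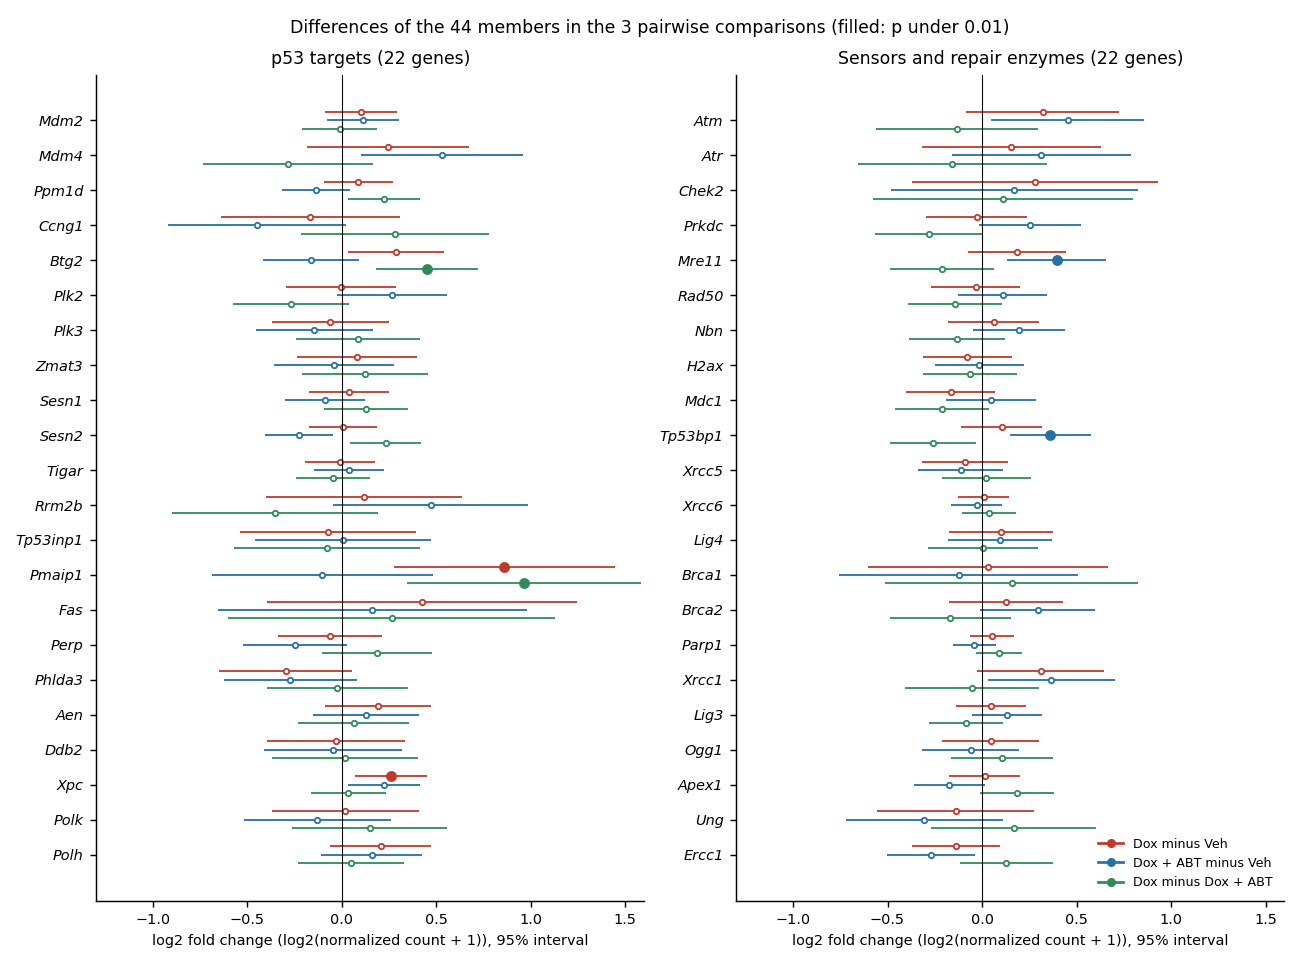
Log2 fold change with its 95% interval (horizontal axis, on log2(normalized count + 1)) for the 22 p53 targets (left) and the 22 sensors and repair enzymes (right) in the 3 pairwise comparisons, with filled points at p under 0.01. Filled points are few: Pmaip1, Xpc and Btg2 on the left and Mre11 and Tp53bp1 on the right, and most intervals cross 0.

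Pmaip1 (ENSRNOG00000018770), which encodes Noxa, a BH3-only protein that neutralizes the survival protein Mcl1, had the largest change of any member in Dox against Veh and in Dox against Dox + ABT. It ran from 15.1 to 56.9 normalized counts in the 10 Veh rats (median 28.3), from 29.1 to 122 in the 8 Dox rats (median 50.4) and from 18.3 to 39.8 in the 8 Dox + ABT rats (median 28.9). All 8 Dox rats lay above the Veh median and 3 (Dox 1, Dox 2 and Dox 5, at 122, 110.3 and 88.4) above every Veh rat, while the other 5 overlapped with Veh. The rise in Dox against Veh was 0.86 ± 0.29 on the log2 scale (SE; 1.82-fold; limma p = 0.00551, adjusted p = 0.3; exact permutation p = 0.0233). Against Dox + ABT it was 0.96 ± 0.30 (1.95-fold; limma p = 0.00343, adjusted p = 0.187; exact permutation p = 0.00901), and 5 of 8 Dox rats lay above every Dox + ABT rat. Dox + ABT and Veh differed by -0.10, with a 95% interval of -0.69 to 0.48. With the library kind as a covariate Dox exceeded Veh by 0.77 (p = 0.0106) and Dox + ABT by 1.06 (p = 0.00135); within the first kind they were 0.70 (p = 0.0701) and 0.97 (p = 0.00679). Without both Dox 1 and Dox 2, a choice made after seeing the data, they were 0.51 (p = 0.0737) and 0.61 (p = 0.0415). The call against Veh was also lost without any 1 of Dox 1, Dox 2, Dox 5, Veh 1, Veh 2 and Veh 4 (0.70 to 0.82), and that against Dox + ABT without Dox 1 (0.80, p = 0.0112) or Dox 2 (0.82, p = 0.0108).

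Btg2 (ENSRNOG00000003300), an antiproliferative co-regulator of transcription that p53 and neuronal activity both induce, ranged from 356 to 494 normalized counts in Veh (median 417), from 422 to 842 in Dox (median 462.5) and from 309 to 486 in Dox + ABT (median 389). Dox 1 and Dox 2 stood apart at 749.5 and 842, and the other 6 Dox rats lay between 422 and 496, within or just above the range of Veh. It was higher in Dox than in Dox + ABT by 0.45 ± 0.13 (1.37-fold; limma p = 0.00188, adjusted p = 0.171; exact permutation p = 0.00668), and all 8 Dox rats lay above the Dox + ABT median. Against Veh the difference was 0.29 ± 0.12, which missed the threshold (limma p = 0.0290); within the first kind of library it was 0.57 (p = 0.00395) and within the second -0.03 (p = 0.760). The difference from Dox + ABT was 0.47 with the library kind as a covariate (p = 0.00157) and 0.25 without both Dox 1 and Dox 2 (p = 0.0222).

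Xpc (ENSRNOG00000008274), the protein that first recognizes distorted DNA in nucleotide excision repair, rose by a smaller step. It ranged from 305 to 512 normalized counts in Veh (median 404), from 418 to 573 in Dox (mean 489 ± 55.9, SD, n = 8) and from 391.8 to 561 in Dox + ABT (median 470.5). All 8 Dox rats lay above the Veh median, with 3 above every Veh rat. The rise was 0.26 ± 0.09 in Dox against Veh (1.20-fold; limma p = 0.00930, adjusted p = 0.338; exact permutation p = 0.00905) and 0.24 ± 0.08 with both doxorubicin groups averaged (limma p = 0.00476, adjusted p = 0.189). Dox + ABT alone was 0.22 ± 0.09 above Veh, which missed the threshold (limma p = 0.0224), and the 2 doxorubicin groups differed by 0.03 (95% interval -0.17 to 0.23). The call in Dox against Veh was close to the threshold and was lost when any of 16 single rats was left out, Dox + ABT rats among them (0.21 to 0.30 over all 26 omissions, p up to 0.0247). With the library kind as a covariate the rise was 0.21 (p = 0.0161), and 0.17 with both doxorubicin groups averaged (p = 0.0313), so neither was called. Within the first kind the difference between Dox and Veh was 0.09 (p = 0.384) and within the second 0.35 (p = 0.0198).

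The promoters of Pmaip1 and Btg2, the members with the largest calls, are shown with those of Aen, Sesn1 and Ccng1, the targets whose promoter window held a p53 half-site. Each window runs from 250 bases before to 50 bases after the start of the gene, 5′ to 3′ on the coding strand, in RefSeq's GRCr8 build, which is not the build of the expression values; 36 of the 44 tested members had an entry. Capitals mark a p53 half-site in Aen, Sesn1 and Ccng1, the cyclic AMP response element TGACGTCA in Btg2, and CGTCA, which is part of that element and was counted also inside it, in Pmaip1.
Pmaip1 (chr18:62255720-62256019, plus strand): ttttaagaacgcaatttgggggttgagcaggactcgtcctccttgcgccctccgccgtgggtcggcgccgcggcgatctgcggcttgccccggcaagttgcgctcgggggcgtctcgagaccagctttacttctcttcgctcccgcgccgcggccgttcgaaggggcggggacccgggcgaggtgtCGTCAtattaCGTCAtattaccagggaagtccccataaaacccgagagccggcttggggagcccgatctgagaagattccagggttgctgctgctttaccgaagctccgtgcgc
Btg2 (chr13:48087641-48087940, minus strand): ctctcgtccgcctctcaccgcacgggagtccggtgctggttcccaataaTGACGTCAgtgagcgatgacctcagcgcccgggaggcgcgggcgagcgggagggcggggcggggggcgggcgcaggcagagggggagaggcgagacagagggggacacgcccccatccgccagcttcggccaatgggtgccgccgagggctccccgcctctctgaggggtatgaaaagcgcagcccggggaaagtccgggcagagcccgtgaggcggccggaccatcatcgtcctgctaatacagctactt
Aen (chr1:142224283-142224582, plus strand): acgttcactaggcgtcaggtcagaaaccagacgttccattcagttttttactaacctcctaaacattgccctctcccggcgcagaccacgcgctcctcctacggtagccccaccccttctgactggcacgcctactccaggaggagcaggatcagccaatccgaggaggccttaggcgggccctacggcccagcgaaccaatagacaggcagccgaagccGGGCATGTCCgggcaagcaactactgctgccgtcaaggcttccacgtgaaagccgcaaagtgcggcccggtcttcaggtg
Sesn1 (chr20:46948469-46948768, plus strand): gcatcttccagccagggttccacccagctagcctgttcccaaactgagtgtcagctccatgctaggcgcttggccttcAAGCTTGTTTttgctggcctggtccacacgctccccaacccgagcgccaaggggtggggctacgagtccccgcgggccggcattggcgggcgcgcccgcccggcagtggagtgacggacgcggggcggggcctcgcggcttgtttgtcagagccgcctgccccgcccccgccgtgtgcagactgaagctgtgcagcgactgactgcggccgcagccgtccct
Ccng1 (chr10:25684827-25685126, minus strand): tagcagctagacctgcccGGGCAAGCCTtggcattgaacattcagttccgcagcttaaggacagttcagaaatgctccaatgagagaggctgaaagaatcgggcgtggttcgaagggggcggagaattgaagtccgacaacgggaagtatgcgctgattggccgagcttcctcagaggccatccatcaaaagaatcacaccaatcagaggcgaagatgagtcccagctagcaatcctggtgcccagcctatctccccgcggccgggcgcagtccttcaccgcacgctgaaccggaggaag

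The p53 half-site, a motif of 10 letters that reads alike on both strands, was in 3 of 18 promoters of the p53 targets, in 2 of 18 of the sensors and enzymes (H2ax and Rad50) and in 7.98% of all 33469 promoters of the table. TGACGTCA was in 2 of 18 target promoters (Btg2 and Plk2), in 0 of 18 of the sensors and enzymes and in 1.83% of all. CGTCA on either strand was in 10 of 18 target promoters, 9 of 18 promoters of sensors and enzymes and 21.2% of all. A match is a stretch of letters in this window and does not show that a factor binds there.

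The genes that restrain p53 did not pass the test. Mdm2, the ubiquitin ligase that degrades p53, ran from 285 to 382 normalized counts in Veh, from 314 to 504.5 in Dox and from 330.4 to 419 in Dox + ABT, a difference of 0.10 ± 0.09 in Dox against Veh (limma p = 0.286); as with Btg2, its highest values were in Dox 1 and Dox 2 (452 and 504.5). Mdm4, which masks the activating domain of p53, ran from 58.4 to 187.5 in Veh, from 90.1 to 179.9 in Dox and from 90.8 to 224 in Dox + ABT. Its difference in Dox + ABT against Veh, 0.53 ± 0.21, had limma p = 0.0170 and was 0.28 with the library kind as a covariate (p = 0.162). Ppm1d, the phosphatase that switches damage signals off, differed between Dox and Dox + ABT by 0.22 ± 0.09 (limma p = 0.0225), at 204.7 to 315 normalized counts in Dox and 202 to 248 in Dox + ABT, with 5 of 8 Dox rats above every Dox + ABT rat.

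Among the targets that arrest growth, Ccng1, a cyclin that recruits a phosphatase to Mdm2, ran from 2289 to 5866 normalized counts in Veh, from 2242 to 7451 in Dox and from 2198 to 3452 in Dox + ABT, with overlapping groups and differences of -0.17 (Dox against Veh, limma p = 0.477) and -0.45 (Dox + ABT against Veh, limma p = 0.0614). The spread lined up with the library kind: the 16 libraries of the first kind lay between 2198 and 3127 and the 10 of the second between 3275 and 7451, without overlap, beside 3.09% of all tested genes whose levels did not overlap between the kinds. As the kinds were found from these values, that is a description. With the kind as a covariate the differences were 0.05 in Dox against Veh (p = 0.727) and 0.00 in Dox + ABT against Veh (p = 0.995). The stress kinases Plk2 and Plk3 and the RNA-binding protein Zmat3 differed by -0.06 to 0.08 in Dox against Veh.

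None of the targets that act on oxidants and nucleotides was called between Dox and Veh. Sesn1 and Sesn2, stress-induced inhibitors of the growth kinase mTORC1, differed by 0.04 and 0.00, Tigar, which lowers glycolytic flux, by -0.01, Rrm2b, a subunit of ribonucleotide reductase used for repair outside S phase, by 0.12, and Tp53inp1, a cofactor of p53 phosphorylation, by -0.07, none with p under 0.05. Sesn2 was lower in Dox + ABT, from 250.3 to 349 normalized counts, than in Veh (261.5 to 419.7) or Dox (320.3 to 410.4), by -0.23 ± 0.09 against Veh (limma p = 0.0152), and Dox was higher than Dox + ABT by 0.23 ± 0.09 (limma p = 0.0183; exact permutation p = 0.00684). Neither reached the threshold by limma. They were -0.14 (limma p = 0.109) and 0.19 (p = 0.0362) with the library kind as a covariate.

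Apart from Pmaip1, the targets tied to cell death did not pass the test. Aen, an apoptosis-linked nuclease, differed by 0.19 ± 0.14 in Dox against Veh (limma p = 0.176), Fas, a death receptor near the filter on low values, by 0.43 ± 0.40 (p = 0.297), and Perp, a membrane protein of desmosomes, by -0.06 ± 0.13 (p = 0.652), at 315 to 647 normalized counts in Veh and 362.5 to 658 in Dox. Phlda3, which blocks recruitment of Akt to membranes, was at -0.30 ± 0.17 in Dox against Veh (limma p = 0.0961) and at -0.27 ± 0.17 in Dox + ABT against Veh (p = 0.125). Beside Xpc, the lesion binder Ddb2 and the bypass polymerases Polk and Polh differed by -0.03, 0.02 and 0.21 in Dox against Veh (limma p = 0.868, 0.927 and 0.124).

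**Figure D2:**
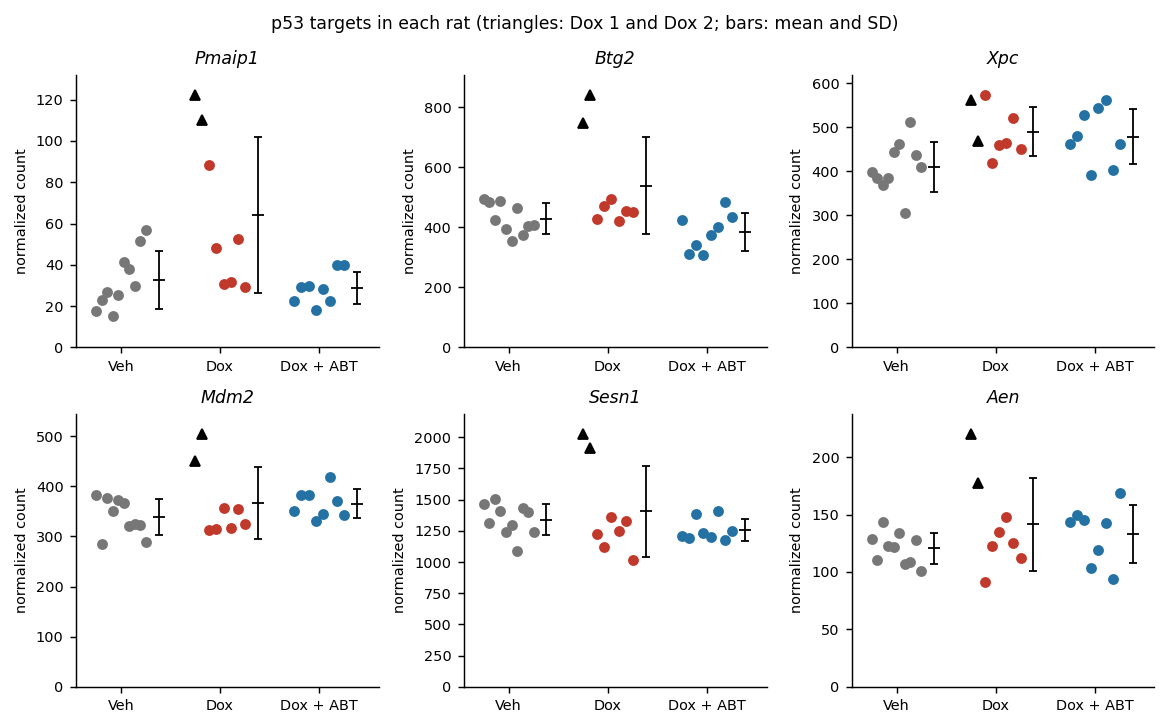
Normalized counts (vertical axes, from 0) of 6 p53 targets in each of 26 rats by group, with the mean and SD beside each group and triangles for the rats Dox 1 and Dox 2. For Pmaip1, Btg2, Mdm2, Sesn1 and Aen the triangles are the highest points of their panel, while for Xpc the Dox rats are spread above the Veh median.

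The highest values of several targets came from the rats Dox 1 and Dox 2. They were singled out after the values were seen, so what follows is a description. Both exceeded the other 24 rats in 6 of the 22 p53 targets (Aen, Btg2, Mdm2, Pmaip1, Polh and Sesn1), in 3 of the 22 sensors and enzymes (Atr, Brca2 and Xrcc1) and in 6.43% of all tested genes. They were both below the others in 0 of the 44 members and 4.71% of all tested genes. In the other genes of these pathways, taken up below, both were highest in 4 of 26 p53 pathway genes and 10 of 55 repair genes. Both were lowest in 1 gene of each of those lists. Sesn1, for which no comparison was called, was 2026 and 1918 normalized counts in these rats, 1018 to 1364 in the other 6 Dox rats, 1091 to 1507 in Veh and 1177 to 1411 in Dox + ABT. Aen was 220.1 and 177 in Dox 1 and Dox 2, 91.5 to 148 in the other Dox rats and at most 168.7 elsewhere. Polh was 181 and 145.5, beside 145.4 in the highest other rat, Dox + ABT 6. Counted against Veh alone, Dox 1 lay above every Veh rat in 8 of 22 targets (36.4%, beside 15.4% of all tested genes) and Dox 2 in 8 of 22 (beside 17.3%); Dox 5 did so in 6 of 22 (beside 16.8%) and each remaining Dox rat in 2 or fewer, and in Dox + ABT the most were 5 of 22, in Dox + ABT 3 and Dox + ABT 6 (beside 10.6% and 12%).

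Markers of other cells and of division in these 2 rats were as follows. Their summed microglial markers (1953 and 1955 normalized counts) and astrocyte markers (31351 and 30639) lay below every Veh rat, and their summed red cell markers (19229 and 19409) above every Veh rat, where the highest was 17770. Other Dox rats reached beyond them in some of these sums: the lowest astrocyte sum of the group was 29841, its median 31848, and the highest red cell sum 90336. In the other cell marker lists the sums of Dox 1 and Dox 2 lay within the range of Veh. Mki67, a protein of dividing cells, was 610 and 558.5 in them, 131 to 317 in the other Dox rats and 88.2 to 205 in Veh. It was the only 1 of 8 tested proliferation genes in which both exceeded the other 24 rats. Of those 8 genes, 2 had higher and 6 lower means in Dox than in Veh. The part of these marker differences in the target levels was not tested. Without both rats, 0 of the 22 targets were called in Dox against Veh and 0 in Dox against Dox + ABT (limma), while the genes called among all 15595 went from 448 to 181 (1.16%) and from 629 to 463 (2.97%).

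**Figure D3:**
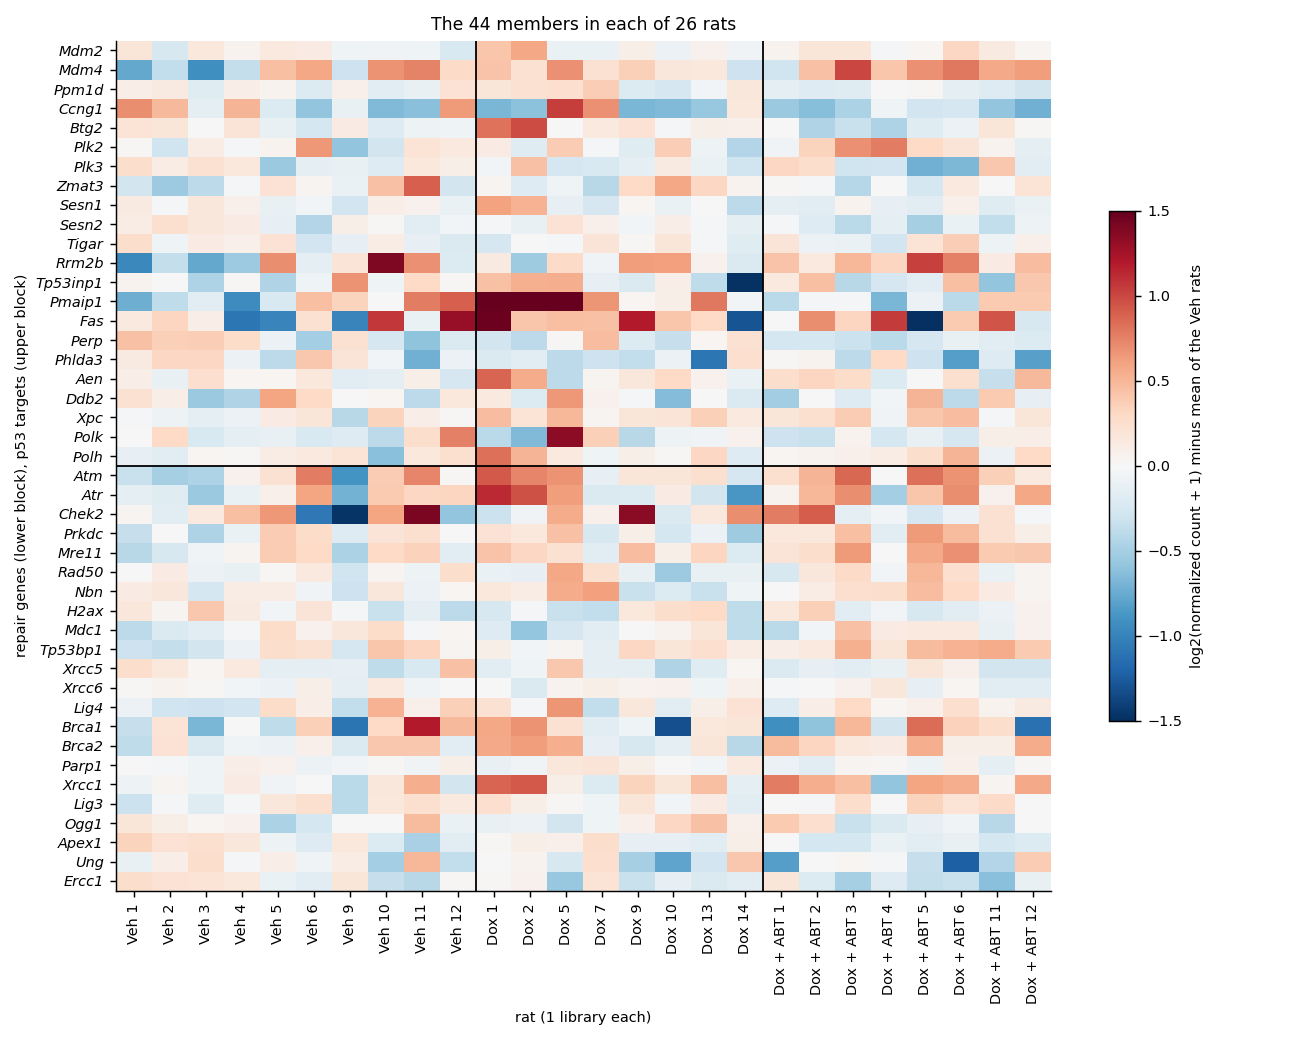
Difference of each of the 44 members (rows; p53 targets above the line, sensors and repair enzymes below it) from the mean of the Veh rats in each of the 26 rats (columns), on log2(normalized count + 1), with colors held at 1.5 beyond that value. Dox 1 and Dox 2 are red for Pmaip1, Btg2, Sesn1, Aen, Atr and Xrcc1, and most rows show as much variation within a group as between groups.

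Among the sensors and repair enzymes the called genes bind broken ends or the chromatin beside them, and both were higher in Dox + ABT than in Veh. Mre11 (ENSRNOG00000009506), the nuclease of the break-sensing complex, ran from 233 to 419.6 normalized counts in Veh (median 321.5), from 281 to 447 in Dox (median 389.9) and from 325 to 522 in Dox + ABT (median 426). The groups overlapped: 5 of the 8 Dox + ABT rats lay above every Veh rat and 3 within their range. The difference in Dox + ABT against Veh was 0.40 ± 0.13 (1.32-fold; limma p = 0.00438, adjusted p = 0.113; exact permutation p = 0.0114), and in Dox against Veh 0.19 ± 0.13 (limma p = 0.158). Tp53bp1 (ENSRNOG00000013837), the mediator 53BP1 that favors end joining over resection, ran from 1169 to 1998 in Veh (median 1482), from 1371 to 1866 in Dox (median 1612) and from 1602 to 2216 in Dox + ABT (median 2023). All 8 Dox + ABT rats lay above the Veh median and 4 above every Veh rat. Its difference was 0.36 ± 0.11 in Dox + ABT against Veh (1.285-fold; limma p = 0.00187, adjusted p = 0.109; exact permutation p = 0.0104), while Dox lay 0.26 ± 0.11 below Dox + ABT (limma p = 0.0276).

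Both differences moved with the library kind. In the Veh group Mre11 was 397 to 419.6 normalized counts in the 4 libraries of the first kind and 233 to 333 in the 6 of the second, and Tp53bp1 1760 to 1998 and 1169 to 1549. Over all 26 rats the levels of the 2 kinds overlapped for both genes. The Veh ranges of Atm and Prkdc, which were not called, also differed by kind. As the kinds were found from these values, these ranges are a description, and the share of all genes that differ so within Veh was not counted. Of the 8 Dox + ABT libraries, 7 were of the first kind. With the kind as a covariate Mre11 differed between Dox + ABT and Veh by 0.18 (limma p = 0.0705) and Tp53bp1 by 0.21 (p = 0.0261). Within the first kind, 7 Dox + ABT rats against 4 Veh rats, the differences were 0.12 (p = 0.255) and 0.08 (p = 0.434). The call of Mre11 was lost without any 1 of Dox + ABT 3, Dox + ABT 5, Dox + ABT 6, Veh 1 and Veh 9 (0.34 to 0.37), while that of Tp53bp1 was kept in all 26 omissions. The rats Dox + ABT 3 and Dox + ABT 5, of the first kind, lay above every Veh rat in 9 of 22 sensors and enzymes each (40.9%), beside 10.6% and 12.1% of all tested genes; Dox 5, of the second kind, did so in 7 (31.8%, beside 16.8%), and Dox 1 and Dox + ABT 6, of the first, in 6 each (27.3%, beside 15.4% and 12%). Over all genes the count called in this comparison was 1222 of 15595 and, with the kind as a covariate, 214.

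**Figure D4:**
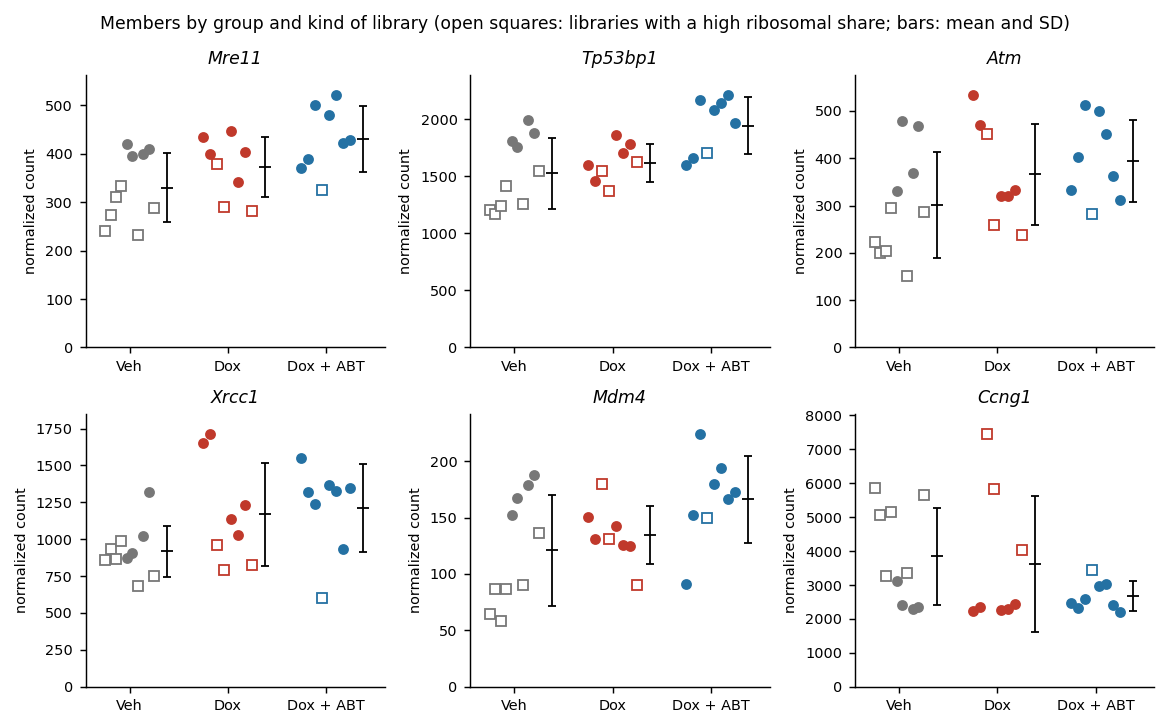
Normalized counts (vertical axes, from 0) of 6 members in each of 26 rats by group, with filled circles for the first kind of library, open squares for the second and the mean and SD beside each group. In Veh the squares lie below the circles for Mre11, Tp53bp1 and Mdm4 and above them for Ccng1. The kinds were found from these values, so this is a description.

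The remaining break sensors were not called. Rad50 and Nbn, the partners of Mre11, differed by -0.03 and 0.06 in Dox against Veh and by 0.11 and 0.20 in Dox + ABT against Veh (limma p = 0.353 and 0.110 for the latter), H2ax, the histone whose phosphorylated form marks breaks, by -0.08 and -0.01, and Mdc1, which binds that form, by -0.17 and 0.05. All 6 break-recognition genes had lower means in Dox than in Dox + ABT, by -0.06 to -0.26, none of them called, where 49.8% of all tested genes had higher means in Dox. Within the first kind H2ax was at 0.10 in that comparison.

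All 4 damage kinases had higher means in Dox + ABT than in Veh, where 49.9% of all tested genes did, and none passed the test. Those differences were, with the library kind as a covariate, 0.16 for Atm, 0.09 for Prkdc, 0.03 for Atr and 0.05 for Chek2, and within the first kind Atm and Chek2 were at -0.01 and -0.19. Atm, the kinase activated by breaks, ran from 151.5 to 479 normalized counts in Veh, from 237.5 to 534 in Dox and from 283 to 513 in Dox + ABT; its differences from Veh were 0.32 ± 0.20 (Dox, limma p = 0.115) and 0.45 ± 0.20 (Dox + ABT, p = 0.0296), and 0.18 and 0.16 with the library kind as a covariate. Between the kinds themselves Atm differed by 0.68, the most of any sensor or enzyme. Prkdc, the catalytic subunit of the end-joining kinase DNA-PK, differed by -0.03 in Dox and 0.25 in Dox + ABT against Veh (limma p = 0.833 and 0.0630). Atr, which answers to stalled replication forks, differed by 0.16 in Dox, and Chek2, an effector kinase, by 0.28 at group means of 10.1 to 11.5 normalized counts.

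None of the enzymes that join ends and recombine strands was called. Xrcc6, a subunit of the Ku ring that holds broken ends, ran from 259.8 to 316 normalized counts in Veh, from 245 to 302 in Dox and from 252 to 319.6 in Dox + ABT, a difference of 0.01 in Dox against Veh with a 95% interval of -0.13 to 0.14. Its partner Xrcc5 differed by -0.09 and the end-joining ligase Lig4 by 0.10. Brca1 and Brca2, which act in homologous recombination, differed by 0.03 and 0.13 in Dox against Veh, and Brca2, at 55.0 to 95.3 normalized counts in Veh and 76.3 to 106.0 in Dox + ABT, by 0.29 in Dox + ABT against Veh (limma p = 0.0573).

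In base and nucleotide excision repair, Parp1, the sensor of single-strand breaks, ran from 1204 to 1369 normalized counts in Veh, from 1182 to 1463 in Dox and from 1147 to 1346 in Dox + ABT, a difference of 0.05 ± 0.06 in Dox against Veh (limma p = 0.368). Xrcc1, the scaffold for single-strand break repair, ran from 682 to 1318 in Veh, from 788 to 1713 in Dox and from 603 to 1550 in Dox + ABT; it was 0.31 ± 0.16 above Veh in Dox (limma p = 0.0682) and 0.37 ± 0.16 in Dox + ABT (p = 0.0337), with the library kind as a covariate 0.19 (p = 0.137) and 0.11 (p = 0.417), and within the first kind 0.39 (p = 0.0266) and 0.34 (p = 0.0351). Apex1, the endonuclease that cuts at abasic sites, ran from 976 to 1322 in Dox and from 914 to 1095 in Dox + ABT, a difference of 0.19 ± 0.10 (limma p = 0.0636; exact permutation p = 0.00917) and of 0.12 with the library kind as a covariate (p = 0.135), with 5 of 8 Dox rats above every Dox + ABT rat. Ercc1, a nuclease subunit of nucleotide excision repair, ran from 538.6 to 862 in Veh and from 463 to 814 in Dox + ABT, a difference of -0.27 ± 0.11 (limma p = 0.0256), and of -0.18 with the library kind as a covariate (p = 0.139). Lig3, Ogg1 and Ung differed by 0.05, 0.04 and -0.14 in Dox against Veh.

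Other genes of the p53 pathway and of repair, 26 and 55 tested, were read beside the members. Of the 26 other p53 pathway genes 1 rose and none fell in Dox against Veh, where 1.02% of all tested genes rose and 1.85% fell. It was Cdkn1a, the cell-cycle inhibitor p21 and the classical p53 target. It ran from 30.9 to 91.0 in Veh, from 62.2 to 530.3 in Dox and from 33.5 to 80.7 in Dox + ABT, where Dox 1 and Dox 2 (510.4 and 530.3) lay far above the other 6 Dox rats (62.2 to 109). Its rise was 1.20 ± 0.36 against Veh (2.29-fold; limma p = 0.00270, adjusted p = 0.242) and 1.10 ± 0.38 against Dox + ABT (p = 0.00768), with the library kind as a covariate 1.09 (p = 0.00507) and 1.22 (p = 0.00320), and without both rats 0.51 (p = 0.0378) and 0.42 (p = 0.101). The next smallest p in Dox against Veh were those of Fdxr, a mitochondrial reductase (-0.36, p = 0.0512), and Tp53i11 (-0.14, p = 0.0835). In Dox + ABT against Veh 2 of the 26 genes were called, Sertad1 at -0.36 and Kat5 at -0.32 (limma p = 0.00381 and 0.00517), named after their values were seen, beside 7.84% of all tested genes called in either direction; with the library kind as a covariate they were at -0.26 (p = 0.0320) and -0.19 (p = 0.0604).

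Of the 55 other DNA repair genes 1 rose and none fell in Dox against Veh, beside 1.02% of all tested genes that rose and 1.85% that fell. That gene was Fen1, the flap nuclease of replication and long-patch repair, at 152 to 241 (Veh), 202 to 333 (Dox) and 159 to 213 (Dox + ABT) normalized counts; it rose by 0.28 ± 0.10 against Veh (limma p = 0.00962) and was 0.34 ± 0.10 higher in Dox than in Dox + ABT (p = 0.00294), with the library kind as a covariate by 0.28 (p = 0.00983) and 0.34 (p = 0.00368), while without both Dox 1 and Dox 2 the differences were 0.15 (p = 0.108) and 0.21 (p = 0.0309). Tdg, a glycosylase for mismatched thymine, was 0.17 above Veh and missed the threshold (limma p = 0.0208). With both doxorubicin groups averaged, 5 of the 55 rose by 0.23 to 0.55 (among them Parg, Ercc6, Ercc8 and Palb2, named after their values were seen) and none fell, beside 2.56% of all tested genes that rose. With the library kind as a covariate none of those named was called in that comparison: Parg was at 0.26 (limma p = 0.0299), Ercc6 at 0.13 (p = 0.0613), Ercc8 at 0.16 (p = 0.0511) and Palb2 at 0.36 (p = 0.0664). Parg, which removes the poly(ADP-ribose) made by Parp1, was the 1 gene of the list that rose in Dox + ABT against Veh, by 0.70 ± 0.21 (limma p = 0.00253), beside 3.89% of all tested genes that rose, and with the kind as a covariate it was at 0.31 (p = 0.0363). Also named after its value was seen, Wrn, a helicase of the RecQ family, was lower in Dox than in Dox + ABT by -0.44 ± 0.14 (p = 0.00417), and by -0.37 with the kind as a covariate (p = 0.00892).

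Pairs of members were compared over the rats as a description. With group means removed, the median correlation over the 231 pairs of p53 targets was 0.03 and over the 231 pairs of sensors and enzymes 0.04, across genes measured in the same 26 libraries, beside 0.00 for pairs drawn from every seventh tested gene. Absolute correlations over 0.6 made up 6.06% of the target pairs, 14.7% of the pairs of sensors and enzymes and 7.4% of the pairs of all genes. With the library kind removed as well they made up 0.866%, 13% and 3.57%.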

How the data were processed

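Poly(A) RNA of the DG was measured in 26 rats, 1 library each, grouped by the treatment in the sample labels. The deposited values are a signal, normalized counts: per the labels and the study's methods, the authors aligned reads to rn6 with STAR 2.5.3a in Partek and divided them by Median Ratio factors, and their notes also name DESeq2. Raw counts were not used here. Low values of genes with 1 row were whole multiples of 1 read, within 0.02 reads, for 75.1% to 78.7% of values by library, too few for a count test. The 24012 rows were summed to 17910 gene IDs.

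The test was limma 3.58.1 in R 4.3.3 (lmFit, then eBayes allowing a trend of variance with level), run on log2(value + 1) over 15595 genes averaging 5 or more, with all 26 rats in 1 fit, two-sided, at p under 0.01, as in the study's methods, with Benjamini-Hochberg values over all tested genes. Fold changes are on that scale and understate those of low genes. Exact permutation tests (43758 or 12870 arrangements, two-sided) covered single genes. The fit was tested on simulated data. Named genes were those with p under 0.01, the 4 smallest p of each set in each pairwise comparison, 1 per role by level and 3 per other list. The members and lists were chosen with earlier results of these data known. Alternatives were pseudocounts (0.5, 5), a filter at 20 or none, TMM and quantile scaling, no trend, arrayWeights, the groups compared alone, unsummed rows, the replicate number as a block, the library kind, and leaving out each rat. Figures used Python 3.11.15 and matplotlib 3.10.9. Some genes of the other lists are not reported here.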

Additional observations from a re-analysis of the deposited data

Results flagged for a closer look

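Among 66 groups of values of the 22 named members, 1 held a rat far from the rest: Mdm4 in Dox + ABT 1 was 90.8 normalized counts, the lowest of its group, and the nearest other rat was at 149.4. On log2(value + 1), the scale of the test, the gap was 0.55 of the group's range (0.44 on the normalized counts themselves), above Dixon's critical value of 0.526 for 8 samples. Chance flags about 1 in 20 groups.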

How the results depend on the processing

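The count of p53 targets called in Dox against Veh, 2 as reported, was 1 without the variance trend, 1 in the first kind of library, 1 with the replicate block, and 0 with the library kind as a covariate, in the second kind alone, with only the 2 groups compared, and without both Dox 1 and Dox 2 (the second kind and the omission of both rats were chosen after seeing the data); under these 4 settings 2.7%, 3.57%, 2.02% and 1.16% of all genes were called, beside 2.87% as reported. Without both rats the count in Dox against Dox + ABT was 0. With both doxorubicin groups averaged, targets numbered 1 as reported, 0 with the kind as a covariate and 0 in the first kind. Sensors and enzymes in Dox + ABT against Veh numbered 2 as reported and 0 under both. In Dox against Dox + ABT they numbered 1 with only the groups compared and 1 with unsummed rows, as did the targets in Dox + ABT against Veh with unsummed rows. The arrayWeights fit raised most counts: targets to 6 in Dox + ABT against Veh and 7 with the groups averaged, sensors and enzymes to 2, 9, 3 and 6 in the 4 comparisons, and all genes called to 3150, 5297, 1612 and 5022, in place of 448, 1222, 629 and 788. Other counts of all genes that moved were 742 (first kind), 765 (replicate block) and 181 (without both rats) in Dox against Veh, 214 (covariate) and 172 (first kind) in Dox + ABT against Veh, 1281 (first kind) and 403 (block) in Dox against Dox + ABT, and 1547 (block), 204 (covariate), 235 (first kind) and 424 (without both rats) with the groups averaged. The cause of these moves was not tested. No result turned its direction while called.

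Over 16 pairs of rats with the same replicate number the correlation of deviations ran from -0.17 to 0.30, with 6 over 0.1. Its median was 0.00035, beside -0.00636 for pairs with different numbers. These correlations cannot exclude that rats of the same number were linked in some way. With the number as a replicate block, sensors and enzymes called rose to 1 in Dox against Veh and 4 with the groups averaged.

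Leaving out each rat in turn gave 0 to 2 targets in Dox against Veh (0 without Dox 1, Dox 2, Dox 5, Veh 1, Veh 2 or Veh 4), 0 to 3 in Dox + ABT against Veh (3 without Veh 10), 1 to 3 in Dox against Dox + ABT (1 without Dox 1 or Dox 2) and 0 to 1 with the groups averaged (0 without Veh 3 or Veh 9). Sensors and enzymes gave 0 to 0, 1 to 4 (4 without Veh 11), 0 to 0 and 0 to 4 (4 without Veh 11). All genes called ran from 266 (without Dox 1) to 707 (without Veh 11), from 695 (without Dox + ABT 5) to 2130 (without Veh 11), from 419 to 787 and from 366 to 1699. Pmaip1 lost its call in Dox against Veh without Dox 1, Dox 2, Dox 5, Veh 1, Veh 2 or Veh 4 (0.70 to 0.82) and Mre11 in Dox + ABT against Veh without Dox + ABT 3, 5 or 6 or Veh 1 or 9 (0.34 to 0.37). By the exact permutation test Pmaip1 missed 0.01 against Veh but not against Dox + ABT, and Mre11 and Tp53bp1 missed it in Dox + ABT against Veh. Members with few reads (Fas, Chek2, Brca1) have intervals wider than a 1.5-fold change.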

Other observations

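Transcript rows of 2 members, chosen after their values were seen, were called where their sums were not, beside 6.39% of all 20203 rows called in Dox + ABT against Veh and 3.25% in Dox against Dox + ABT. The second of 2 rows of Ccng1 ran from 91.2 to 643 normalized counts in Veh, from 140.2 to 1283 in Dox and from 45.1 to 244 in Dox + ABT, and was lower in Dox + ABT than in Veh by -1.28 (limma p = 0.00413) and higher in Dox than in Dox + ABT by 1.58 (p = 0.00105), while the first row held most of the gene's signal. The fifth of 5 rows of Mdc1, at 4.97 to 19.2 in Veh, 2.33 to 20.8 in Dox and 11 to 27.7 in Dox + ABT, was lower in Dox than in Dox + ABT by -1.0 (p = 0.00420). How reads were assigned to the rows of a gene is not given in the sources used here, and the part of the library kind in these rows was not tested.

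Beside the members, immediate early genes, which firing neurons induce within minutes, were read as a list. Of 10 tested, 2 fell and none rose in Dox against Veh, beside 1.85% of all tested genes that fell and 1.02% that rose, with a median of -0.28 on the log2 scale: Npas4 (-1.16 ± 0.31, limma p = 0.000828), from 24.7 to 58.4 normalized counts in Veh to 9.10 to 37.1 in Dox, and Arc (-0.76 ± 0.27, p = 0.00883). With the library kind as a covariate Npas4 was at -1.28 (p = 0.000200) and Arc at -0.69 (p = 0.0156), and without both Dox 1 and Dox 2 at -1.0 (p = 0.00677) and -0.37 (p = 0.131). Npas4 was also lower in Dox than in Dox + ABT by -1.20 (p = 0.000991), with the kind as a covariate by -1.07 (p = 0.00211), and Egr2 had the next smallest p in Dox against Veh (-0.70, p = 0.0654). Of 8 proliferation genes in Dox against Veh, beside the same shares, 1 rose (Mki67, 0.86 ± 0.26, p = 0.00241, and 0.45 without both Dox 1 and Dox 2, p = 0.0412) and 1 fell (Mcm6, -0.35 ± 0.13, p = 0.00933), followed by Mcm5 (-0.53, p = 0.0664). With the library kind as a covariate Mki67 was at 0.66 (p = 0.00171) and Mcm6 at -0.30 (p = 0.0196), and without both rats Mcm6 was at -0.36 (p = 0.0156). In Dox + ABT against Veh Mcm6 also fell, by -0.52 ± 0.13 (limma p = 0.000283), and by -0.41 with the kind as a covariate (p = 0.0037).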
